A study of Mus musculus with 44 samples.

Results

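The regions described here were open in cultured mouse cortical neurons at 18 days in vitro (DIV18) and were missing from the peak lists of resting neurons at 7 days in vitro (DIV7). They were chosen from peak lists of ATAC-seq, an assay in which a transposase cuts and tags the DNA it can reach. In each of 8 unstimulated libraries (2 of DIV18 non-targeting, 2 of DIV7 non-targeting and 4 of DIV7 DMSO), the 75000 autosomal intervals with the highest −log10 p were merged, which gave 136843 regions. Both DIV18 libraries held 58915 of these. Of them, 4666 were overlapped by no interval of the 6 whole DIV7 lists and are called members below, 3.41% of all regions and 7.92% of those held by both DIV18 libraries. The other 54249 were also held at DIV7 and are called shared regions.

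The cultures were primary neurons taken from E16.5 mouse cortex. The DIV18 experiment had 20 libraries, with 2 per group, from 5 genotypes: non-targeting gRNA, and 4 with Smarcc2 knocked out that carried either vector, WT Smarcc2 (wild type), Smarcc2(S586A), or the form with glutamate, Smarcc2(S586E). Each genotype was kept unstimulated, after silencing overnight with 1 µM tetrodotoxin and 100 µM D-AP5, or then depolarized with 50 mM KCl for 30 min; DNase was added to the wells of all groups during the treatment. The 24 DIV7 libraries were from 2 other experiments, each with unstimulated and depolarized libraries. One had a non-targeting guide or an Arid2 knockout. The other had neurons labelled WT, with no guide named, given 0.1% DMSO or FHT1015 (100 nM) for 10 or 30 min. FHT1015 blocks the ATPase of BAF. Culture age and experiment can therefore not be told apart. By the labels a biological replicate is an embryo's cortex, but nothing ties a library to its own embryo, so p-values measure the spread between libraries. How many cells carried the knockout is not given in the sources used here.

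Open chromatin marks promoters and enhancers, DNA elements that bind transcription factors and set how strongly genes are transcribed. As neurons mature in culture they form synapses and change their ion channels, and enhancers open and close along with these steps. The BAF complex is a chromatin remodeler that uses ATP to move nucleosomes and keep such elements open, and Smarcc2, also called BAF170, is one of its core subunits. Depolarization lets calcium enter the neuron, which induces early transcription factors such as those of the Fos and Jun families and then later genes that act at synapses.

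Few members lay at promoters, but those that did often carried the recognition site of AP-1, the dimer of Fos and Jun proteins. Of the members, 57 (1.22%) overlapped a RefSeq promoter window (mm10, 250 bases before to 50 after a gene start), against 18.6% of shared regions and 8.88% of all merged regions. The 7-base AP-1 site TGANTCA, the same letters on both strands when N is set aside, stood in the window of 28 of these 57 members (49.1%), and in 26 of them it lay inside the member itself. The site was in the windows of 598 of 10111 shared regions (5.91%), of 32 of 467 shared regions with a mean rank over 40000 to 50000 (6.85%), and in 7.83% of all promoter windows searched. The 5 best-ranked protein-coding windows with the site inside the member and the 2 best-ranked without it, among windows of which the member covered at least 250 bases, are printed below, as the 250 bases before the start, 5′ to 3′ on the gene's strand, with the AP-1 site in capitals.
Clec18a: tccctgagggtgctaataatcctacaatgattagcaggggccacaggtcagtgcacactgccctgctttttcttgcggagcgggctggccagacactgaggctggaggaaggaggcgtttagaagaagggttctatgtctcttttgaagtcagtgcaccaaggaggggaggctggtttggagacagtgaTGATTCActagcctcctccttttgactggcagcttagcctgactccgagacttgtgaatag
Dhrs9: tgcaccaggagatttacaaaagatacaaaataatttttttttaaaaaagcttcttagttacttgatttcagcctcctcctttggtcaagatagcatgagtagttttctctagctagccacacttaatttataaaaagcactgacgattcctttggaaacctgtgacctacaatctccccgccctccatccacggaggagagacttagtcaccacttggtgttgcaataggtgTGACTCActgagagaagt
Sprr1a: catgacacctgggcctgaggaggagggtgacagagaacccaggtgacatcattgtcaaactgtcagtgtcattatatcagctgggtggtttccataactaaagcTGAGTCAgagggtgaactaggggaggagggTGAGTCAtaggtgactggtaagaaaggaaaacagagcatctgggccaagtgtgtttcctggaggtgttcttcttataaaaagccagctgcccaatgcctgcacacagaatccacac
Gm5414: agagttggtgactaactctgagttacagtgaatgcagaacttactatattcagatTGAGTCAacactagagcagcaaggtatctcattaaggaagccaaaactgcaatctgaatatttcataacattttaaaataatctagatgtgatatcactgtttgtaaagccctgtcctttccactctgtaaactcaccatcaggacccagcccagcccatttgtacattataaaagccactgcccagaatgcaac
Fcer2a: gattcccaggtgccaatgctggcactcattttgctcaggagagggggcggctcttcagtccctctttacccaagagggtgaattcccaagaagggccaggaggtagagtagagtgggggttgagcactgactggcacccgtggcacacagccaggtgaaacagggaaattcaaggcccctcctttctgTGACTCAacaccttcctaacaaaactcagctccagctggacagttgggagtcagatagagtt
Myo7a: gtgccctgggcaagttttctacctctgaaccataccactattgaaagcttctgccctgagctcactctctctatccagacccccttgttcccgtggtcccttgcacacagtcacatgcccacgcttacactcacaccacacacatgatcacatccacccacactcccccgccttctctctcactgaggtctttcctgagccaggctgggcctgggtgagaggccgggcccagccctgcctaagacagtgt
Blnk: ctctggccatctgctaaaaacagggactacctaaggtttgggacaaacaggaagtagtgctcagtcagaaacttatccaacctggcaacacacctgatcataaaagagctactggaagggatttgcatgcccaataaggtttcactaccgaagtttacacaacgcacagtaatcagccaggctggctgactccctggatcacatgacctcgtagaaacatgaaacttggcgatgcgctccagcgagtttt

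The windows lie at chr8:111081709-111081958 (Clec18a, minus strand), chr2:69380212-69380461 (Dhrs9, plus strand), chr3:92485882-92486131 (Sprr1a, minus strand), chr15:101628253-101628502 (Gm5414, minus strand), chr8:3690862-3691111 (Fcer2a, minus strand), chr7:98109249-98109498 (Myo7a, minus strand) and chr19:40994222-40994471 (Blnk, minus strand). The first base of the site lay 61 bases before the start of Clec18a, a lectin gene, 18 before that of Dhrs9, a retinol dehydrogenase gene, 195 before that of Gm5414 and 62 before that of Fcer2a, which encodes the low-affinity IgE receptor. Sprr1a, a gene known for its induction in injured neurons, had it 146 and 116 bases before its start. The windows of Myo7a, an unconventional myosin, and Blnk, an adaptor of B cell signalling, held no AP-1 site.

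The member windows were also less rich in G and C than those of shared regions. Their median GC content was 49.3%, against 61.7% in shared windows, 58.3% in shared windows of the same rank band and 53.0% in all windows. The GC box GGGCGG, known for Sp and Klf factors, was in the windows of 9 of 57 members (15.8%) and of 67.4% of shared regions, and the ETS site CCGGAAG in 1 member (1.75%) and 18.4% of shared regions. The E-boxes CAGATG, known for Neurod factors, and CAGCTG were in 29.8% and 31.6% of members, against 13.9% and 18.4% of shared regions. The letters AGGTCA (ROR), ACAATG (SOX) and TTGGCA (an NFI site in part) were in 24.6%, 19.3% and 14.0% of members and in 12.95%, 8.33% and 13.3% of shared regions. Neither the CREB site TGACGTCA nor the Egr site GCGTGGGCG was found in the windows of members, and 3.58% and 1.40% of shared regions held them. Every motif was searched on both strands in the 300-base window. Some windows share sequence where a gene has neighbouring starts, so the counts above are given per region, and a match is only a match of letters.

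**Figure D1:**
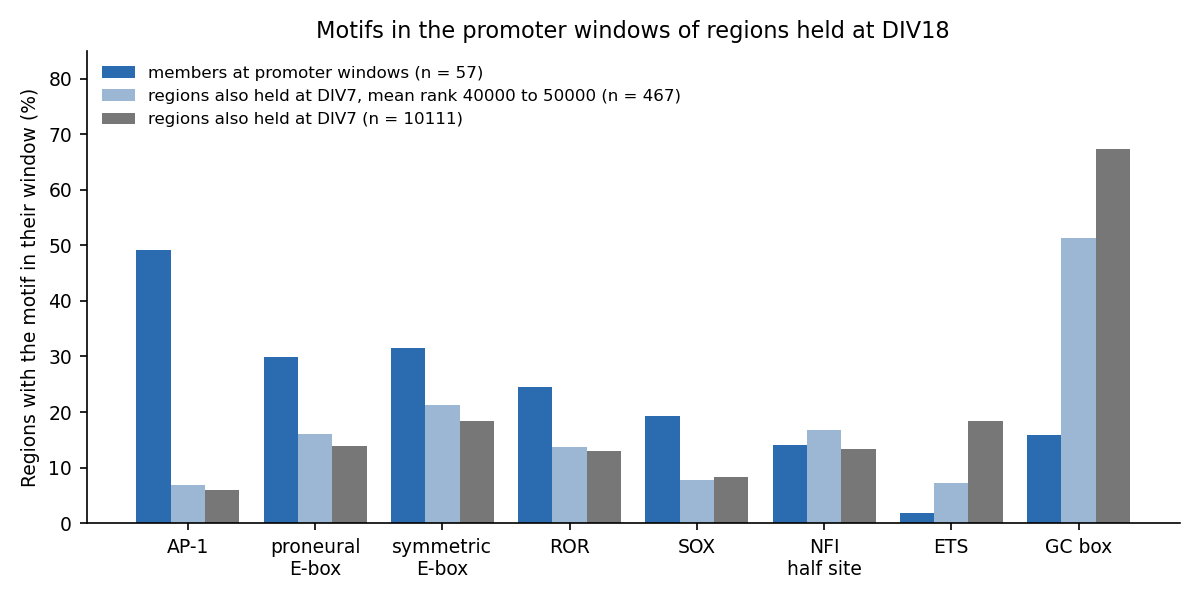
Share of regions (%, vertical axis) whose promoter window holds each of 8 motifs (horizontal axis), for members, for shared regions with a mean rank over 40000 to 50000 and for all shared regions at promoter windows. The AP-1 bar of members stands at 49.1% against 6.85% and 5.91%, and the GC box runs the other way, at 15.8% against 51.4% and 67.4%.

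With and without the AP-1 site, more of the members at promoter windows were called lower than higher after KCl. Over the 4 knockout genotypes, 2 of the 28 members with the site were called higher and 8 lower after KCl, by limma with Benjamini-Hochberg adjustment as described below, with a median change of −0.23; the shares were 7.14% and 25.8% over all members and 13.5% and 15.7% over all regions. Of the 29 without it, 0 were called higher and 12 lower, with a median of −0.36. Dhrs9 rose by 0.46 (adjusted p = 0.03525), while Sprr1a fell by 0.83 (adjusted p = 0.004801) and Fcer2a fell by 0.64 (adjusted p = 0.003263). The other 4 printed members were not called.

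Outside promoters, the members were small and single-peaked and lay mostly inside genes. Their median width was 527 bp (quartiles 422 and 654), against 919 bp for shared regions. In each DIV18 library 67.5% had 1 summit, against 32.7% of shared regions. These differences are partly built in by the rule, at any rank. Only shared regions could be widened by merging with DIV7 intervals, and a wider region is more easily overlapped by one. By its midpoint, 3.24% of members (151) lay within 1 kb of an end of a protein-coding gene, 59.9% inside a gene farther from its ends, 26.6% outside within 100 kb and 10.3% farther away. Among shared regions 19.5% lay at a gene end and 47.4% inside a gene. Members were of middling strength: their median rank was 43201.5 and 48456.5 in the DIV18 libraries that chose them, and the authors' median fold enrichment was 11.6 and 11.5. Among 1057 members and 7921 shared regions of like strength, with a mean rank over 40000 to 50000, the share at a gene end was 3.22% and 7.66%, and the median width was 511 and 699 bp. Regions just inside the threshold, with the worse of both ranks over 70000 to 75000, numbered 605 with a median fold enrichment of 8.81, and those just outside, to 80000, numbered 667 with 8.39.

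Members were spread thinly over many genes. In all, 4185 members lay in or within 100 kb of a gene and fell to 3049 genes, 2313 of which had exactly 1 member and 43 at least 5. The genes with the most members were Asic2 (10), which encodes a proton-gated ion channel, Dlg2 (9), a scaffold of the postsynaptic density, Atxn1 (9), a transcriptional regulator known from ataxia, Sel1l3 (8), Cdh13 (8), a cadherin, Gabbr2 (7), a GABA-B receptor subunit, Csmd1 (7), Sorcs2 (7), a sorting receptor, Galnt18 (7) and Camk1d (6), a calcium-dependent kinase. Many of these genes are long, such as Dlg2 with 1973 kb, Csmd1 with 1643 kb and Cdh13 with 1185 kb, and they held many shared regions too, 47 in Dlg2. Sel1l3, a gene of 106 kb, held 8 members beside 14 shared regions. Only 11.8% of members lay within 10 kb of another member, and the median distance to the nearest was 103 kb.

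The gene lists held members in shares on both sides of that of all regions. The share of regions held by both DIV18 libraries that were members was 15.5% for late activity genes (15 of 97), 11.9% for genes of neuronal maturation (18 of 151), 9.76% for synapse genes (41 of 420), 8.68% for ion channels (38 of 438), 7.30% for early activity genes (10 of 137), 6.71% for BAF subunits (11 of 164), 5.75% for genes of the perineuronal matrix (5 of 87) and 5.30% for genes of immature neurons (7 of 132), beside 7.92% over all regions held by both, those far from any gene included. Late activity genes with several members were Scg2 and Mylk, with 4 each; Scg2 encodes a secretory granule protein. Among the members of best rank in the maturation list were those in Scn8a (chr15:100971299-100972351, ranks 19796 and 16642), a sodium channel of adult axons, and in Cplx1 (chr5:108528595-108529330, ranks 16741 and 25111), a complexin of the release machinery. In the synapse list they lay in Nrxn3, a presynaptic adhesion protein, Syt1, the calcium sensor of vesicle release, and Dlg2.

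Markers of other cells gave shares on both sides of 7.92%. It was 12% for both inhibitory neurons (6 of 50) and oligodendrocytes (6 of 50), 11.5% for vascular and meningeal cells (3 of 26), 10.5% for housekeeping genes (6 of 57), 4.55% for microglia (1 of 22), 4.11% for astrocytes (3 of 73), 3.95% for excitatory neurons (6 of 152) and 3.33% for neural progenitors (2 of 60). As a check of the label, an end of 16 of 20 excitatory marker genes was held by both unstimulated non-targeting DIV18 libraries, as was that of 8 of 19 inhibitory, 16 of 18 progenitor, 11 of 16 astrocyte, 5 of 14 oligodendrocyte, 5 of 15 microglia and 2 of 15 vascular and meningeal genes. No end was held for the microglial genes Cx3cr1, P2ry12, Tmem119 and Csf1r or the oligodendrocyte genes Sox10 and Mog. The part of other cell types in the members was not tested. In bulk libraries, fewer cells of a type and less open DNA per cell cannot be told apart.

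To compare libraries, each region got a rank score, log2(133009 / rank), where rank is that of the strongest interval that overlaps it and 133009 is how many intervals the shortest list had. A region scored 0 if no interval overlapped it or if the strongest one ranked beyond 133009, so a 0 can hide a weak peak. A change of 1 is a rank divided by 2. The 2 top members, by the values that chose them, lay 2.81 kb from Hagh (chr17:24867257-24868647, ranks 2359 and 2632), a glyoxalase gene, and 3.43 kb from Adgrb1 (chr15:74592898-74595329, ranks 3185 and 2378), which encodes the adhesion receptor BAI1. The next were in Gabbr2 (chr4:46794255-46795305, ranks 4789 and 5088) and Unc5d, a netrin receptor gene, followed by members at or near Abcg1, Arfgef2, Pmm1, Hdac4, Rbm4, Slc30a1, Agbl4 and Eif2ak4. Of these 12, only the one at Rbm4 lay at a gene end.

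Most members stayed detectable in the other DIV18 groups but left the top of the list in some. In the libraries that the rule did not use, the share of members among the top 75000 intervals was 78.8% and 72.3% with wild-type Smarcc2, 85.1% and 78.8% with S586A, 65.2% and 67.6% with S586E and 65.5% and 52.9% with vector, all unstimulated. After KCl it was 73.1% and 66.5% in non-targeting, 65.6% and 58.6% with wild type, 72.2% and 65.2% with S586A, 64.7% and 61.4% with S586E and 45.6% and 37.3% with vector. The depolarized vector libraries were the lowest, and no other pair overlapped them. Shared regions with a mean rank over 40000 to 50000 were also lowest there, at 67.1% and 65.6%, against 79.0% to 84.85% in the other depolarized libraries. In the whole lists, 79.96% and 69.3% of members were present in depolarized vector neurons, and at least 93.9% in each other library. Of the 4666 members, 792 were in the top 75000 of all 18 other DIV18 libraries, 52 were in that of none, and 2817 were in all 18 whole lists. The depolarized vector lists were also the shortest at DIV18, with 184112 and 162079 autosomal intervals against 186416 to 261710 in the others; the part of list length in these shares was not tested here.

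**Figure D2:**
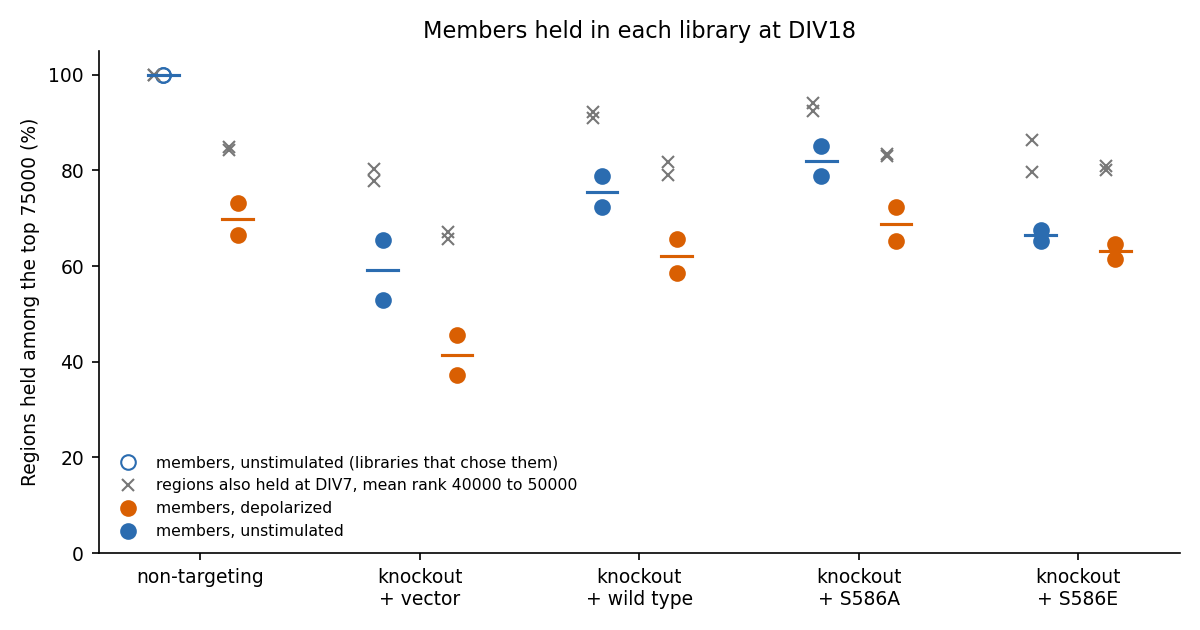
Share of members (circles, %) and of shared regions with a mean rank over 40000 to 50000 (crosses) held among the top 75000 intervals of each DIV18 library, by genotype and state, with lines at the mean of both libraries. Open circles are the libraries that chose the members; the depolarized vector circles, at 45.6% and 37.3%, are the lowest.

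At DIV7 a minority of members was present in each library that the rule did not use, at most 12.752% and 11.444%, in unstimulated neurons with the Arid2 knockout. In the drug experiment, 0.6% to 2.34% of members were in the whole lists of the 12 libraries outside the rule. In depolarized DIV7 non-targeting neurons it was 5.74% and 5.36%. No interval of the 18 other DIV7 libraries overlapped 3101 members (66.5%), so the rule's absence from DIV7 extends to all 24 lists for these only. Members that rose with KCl at DIV18 (defined below) were present more often in depolarized DIV7 non-targeting neurons, 13.2% and 13.8% of 333, than members that fell, 3.33% and 2.91% of 1203; no test was made of this difference.

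In depolarized libraries, which took no part in the choice, members mostly had a lower rank score at DIV7 than at DIV18. At Adgrb1 the depolarized scores were 7.67 and 7.22 at DIV18 and 0.00 and 0.77 at DIV7, and at Hagh they were 4.22 and 3.87 against 0.00 and 0.00. Groups did not overlap at either. The median change from DIV7 to DIV18 was 1.22 over the members, 0.48 over shared regions and 0.00 over all regions. Limma with Benjamini-Hochberg adjustment over 135141 regions called 3752 of 4666 members (80.4%) higher at DIV18 and 0 lower, where 25.0% of all regions were called higher and 17.2% lower. Of shared regions, 40.7% were called higher and 12.9% lower. These counts are a description and not a test independent of the rule, because 6 of the 12 libraries in that fit had chosen the members and a member at the floor score of 0 at DIV7 cannot fall. In a fit of the 6 depolarized libraries alone, added after the data were seen, 3771 of 4181 members tested were called higher and 0 lower, against 29.0% and 19.5% of all regions. The floor holds there too. A region also needed a score above 0 in at least 2 libraries, and few members were present at DIV7. Most members therefore passed this filter through the DIV18 libraries, and this count is a description as well. The first count fell to 77 with list length as a covariate and to 2145 on the top 75000 intervals alone; the DIV7 depolarized lists were shorter, 142935 and 142071 intervals against 213061 and 221955 at DIV18.

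KCl moved more members down than up. The comparison averaged over the 4 Smarcc2 knockout genotypes, since the non-targeting unstimulated libraries had chosen the members, and both members and shared regions had been chosen in the unstimulated state. Limma over 112847 regions called 333 members (7.14%) higher and 1203 (25.8%) lower after KCl, against 13.5% and 15.7% of all regions tested and 14.95% and 18.3% of the shared regions with a mean rank over 40000 to 50000. The median change was −0.22 for members, −0.07 for those shared regions and −0.03 for all regions. Of the 3101 members absent from every DIV7 list, 174 were higher (5.61%) and 843 lower (27.2%). This is no independent support, since they are part of the same members. Depolarized DIV7 non-targeting lists also held a larger share of the members that rose than of those that fell. Of the called members, 208 of the 333 higher (62.5%) and 1192 of the 1203 lower (99.1%) were also called, with the same sign, when each summit was ranked on its own, which keeps a weak peak from taking the rank of a strong one that it merges with; in all, 209 were then called higher and 1816 lower. With list length as a covariate, 177 were higher and 686 lower.

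Of the members that rose, 1.80% lay at a gene end, against 3.74% of those that fell. Of the named members, the one with the largest rise at summits (2.38) lay 2.00 kb from Lonrf1 (chr8:36251354-36252363), a RING finger gene. Its scores in unstimulated libraries were 2.03 and 1.74 with vector, 1.15 and 0.92 with wild type, 1.20 and 1.43 with S586A and 0.95 and 1.10 with S586E, and after KCl they were 3.69 and 3.84, 3.48 and 3.67, 3.79 and 3.80, and 3.73 and 2.90. No unstimulated value reached a depolarized one, and the mean rise was 2.30 (SE 0.12, adjusted p = 4.591e-09). The member 45.4 kb from Cblb (chr16:51985490-51985790), a ubiquitin ligase gene, rose by 2.15 (SE 0.15, adjusted p = 9.028e-08), with unstimulated scores of 0.53 to 1.67 and depolarized scores of 3.06 to 3.76. The member 26.1 kb from Zfp281 (chr1:136656521-136657038), a zinc finger factor gene, rose by 2.06 (SE 0.17, adjusted p = 6.541e-07).

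Adgrb1, among the strongest members, rose as well. Its unstimulated scores were 5.32 and 5.18 with vector, 5.32 and 5.17 with wild type, 5.61 and 5.47 with S586A and 5.10 and 4.89 with S586E, and the depolarized scores were 6.53 and 6.59, 6.64 and 6.58, 7.17 and 7.02, and 6.64 and 6.42. The rise was 1.44 (SE 0.10, adjusted p = 6.389e-08). By intervals the largest rises were in Zc3h10 (5.71) and Dusp5 (4.81), but at summits they were 0.25, which did not pass, and 1.47, which did. Chosen after their values were seen, as the next largest that passed by both units, ranked by the smaller of both changes, members near Ppm1b, a phosphatase gene, and in Wdfy1 rose by 1.90 and 1.78.

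Some members that fell had depolarized and unstimulated libraries that did not overlap in any of the 4 knockout genotypes. Of these, the one in Gsg1l, an auxiliary AMPA receptor subunit, changed most. The member in it (chr7:126005908-126006608) scored 2.51 and 2.53 with vector, 2.71 and 1.66 with wild type, 3.45 and 2.32 with S586A and 3.27 and 1.46 with S586E before KCl. Afterwards it scored 1.35 and 0.07, 0.58 and 0.58, 1.27 and 0.00, and 0.00 and 0.92, so that each genotype's pairs stood apart, and it fell by 1.89 (SE 0.32, adjusted p = 0.0004381). The member at Chrd (chr16:20741278-20742108), which encodes the BMP antagonist chordin, fell by 1.78 (SE 0.17, adjusted p = 2.31e-06), from 1.84 to 2.80 before KCl to 0.00 to 0.96 after it. Members at Dpp8 (chr9:65084315-65084840), a dipeptidyl peptidase gene, near Tub (chr7:108990979-108991660) and in Mapk12 (chr15:89137368-89137882), a p38 kinase gene, fell by 1.75, 1.58 and 1.56 (adjusted p = 2.299e-05, 2.499e-05 and 5.653e-06). All 5 passed at summits too. Of the strongest members, Hagh fell by 1.02 (SE 0.12, adjusted p = 2.042e-05), Gabbr2 by 1.05 (SE 0.10, adjusted p = 2.359e-06) and Abcg1, a cholesterol exporter, by 0.67.

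**Figure D3:**
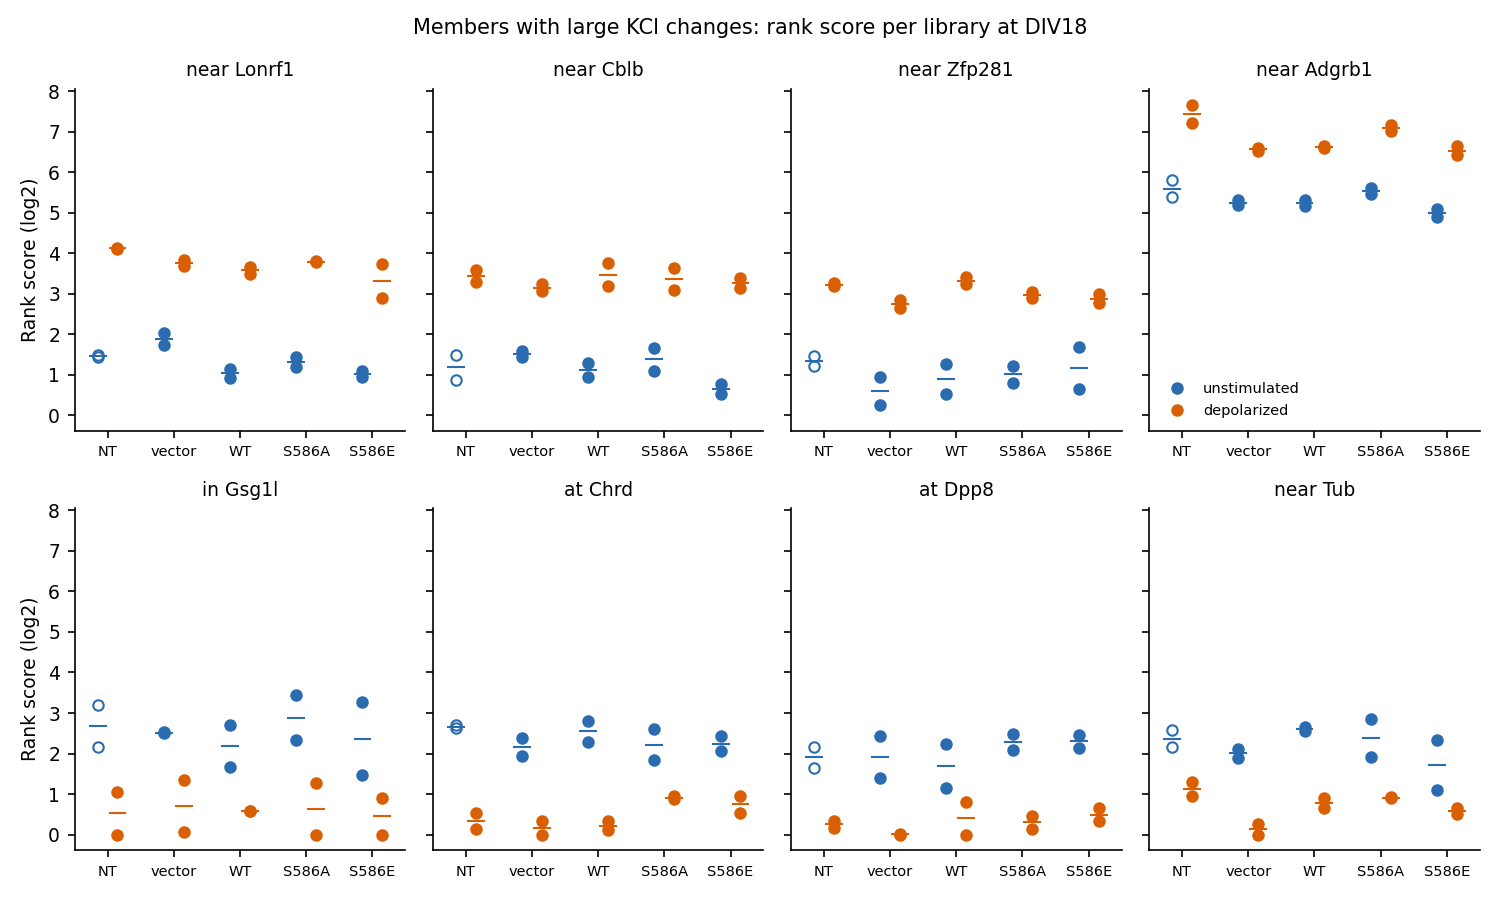
Rank score (log2 scale, vertical axis) of 8 members in each DIV18 library, by genotype (horizontal axis; NT, non-targeting; WT, wild type) and state, with lines at the mean of both libraries and open circles for the libraries that chose the members. The members near Lonrf1, Cblb, Zfp281 and Adgrb1 rose after KCl in every genotype, and those at Gsg1l, Chrd, Dpp8 and Tub fell.

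Among the early activity genes more members rose than fell. Of their 10 members, 5 were called higher and 1 lower, with a median change of 0.25, where 7.14% of all members and 13.5% of all regions were called higher and 25.8% and 15.7% lower. The list's rises were a pair of members at Dusp5, a phosphatase of ERK (chr19:53543449-53544173, 1.64 kb outside the gene, by 1.04 with adjusted p = 8.649e-06, and the member inside the gene given above), and members near Sik1 (by 1.45), a salt-inducible kinase gene, near Klf6 (by 0.88) and near Fosl2 (by 0.42), a Fos family gene, which did not pass at summits; a member 46.0 kb from Dusp5 fell by 0.71. Of 15 members of late activity genes 2 rose, near Vgf (by 0.72), a secreted neuropeptide precursor, and in Mylk, and 4 fell. In the maturation list 4 of 18 rose and 6 fell: a member in Slc6a17, a vesicular amino acid transporter, rose by 1.81, and a member in Ppp3ca, the calcineurin catalytic subunit, fell by 0.92.

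The other lists are to be read against the same shares, 7.14% and 25.8% of all members and 13.5% and 15.7% of all regions, and no list was tested. Of 41 synapse members 6 rose and 9 fell; a member in Syt1 (chr10:108770947-108771501) rose by 0.93, and a member in Gria2, an AMPA receptor subunit, fell by 1.13. Of 38 ion channel members 2 rose and 10 fell, such as one in Kcnma1, a potassium channel gene, which fell by 0.80. Among BAF subunits 1 of 11 rose and 5 fell, one of them in Bcl7b (by 0.70). The counts were 0 and 2 of 7 for immature neurons, 0 and 2 of 5 for the perineuronal matrix, 1 and 2 of 6 for housekeeping genes, 0 and 1 of 6 for excitatory and for inhibitory neurons, 1 and 0 of 2 for progenitors, 1 and 2 of 3 for astrocytes, 1 and 2 of 6 for oligodendrocytes, 0 and 1 of 3 for vascular cells and 0 and 0 of 1 for microglia, higher and lower in turn. The astrocyte gene S100b held a member that rose by 1.66 (adjusted p = 3.878e-06).

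The response to KCl had the same direction in each genotype by its median. The median change was −0.40 in non-targeting neurons, whose unstimulated libraries chose the members, −0.30 with vector, −0.24 with wild type, −0.24 with S586A and −0.05 with S586E. The difference in the KCl change between vector and wild type, a comparison added after the data were seen, was called for 0 members by limma (265 of 4666 at an unadjusted p under 0.05, beside 5977 of all 112847 regions; 0.0106% of all regions were called higher and 0.00266% lower), with a median of −0.10. The first S586E unstimulated library had the lowest background level of the DIV18 libraries, 0.942 reads per base against 1.51 to 3.68, and the shortest list outside the depolarized vector libraries, and its part in the S586E values was not tested.

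Adding back wild-type Smarcc2 raised more members than it lowered, relative to vector. Unstimulated, limma called 100 members higher with wild type and 18 lower, against 1.45% and 0.867% of all regions (members 2.14% and 0.386%), and after KCl 73 higher and 6 lower, against 0.736% and 0.295% (members 1.56% and 0.129%). Of shared regions, 2.21% were called higher and 0.900% lower unstimulated, and 1.26% and 0.0940% after KCl. In the rank band given above, 1.80% of members and 1.40% of shared regions were called higher unstimulated, and 0.568% of each after KCl. Thus the share called higher was not particular to members. The median change of members was 0.26 and 0.34, beside 0.05 and 0.08 over shared regions and 0.01 and 0.00 over all regions. Members were chosen in neurons without the Smarcc2 knockout, and the part of that choice was not tested. At summits 100 of the 100 and 17 of the 18 unstimulated calls passed, and 37 of the 73 and 1 of the 6 after KCl. Among the members absent from every DIV7 list the counts were 69 and 10, and 47 and 2. Of the members named below by size of change in either state, those in Smarcc2 (both states) and near Tpcn2 kept their call whichever library was left out, and each other lost it without at least 1. The total of 118 unstimulated calls was 48 without vector replicate 1, 11 without vector replicate 2, 28 without wild-type replicate 1 and 29 without wild-type replicate 2, and the 79 after KCl were 40, 9, 1 and 9 in the same order.

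The member inside Smarcc2 itself (chr10:128463797-128464199, 4.82 kb from the nearer end of the gene, at 128459182) differed most between wild type and vector in unstimulated neurons. Unstimulated it scored 0.90 and 1.74 in non-targeting, 0.60 and 0.49 with vector, 4.37 and 3.64 with wild type, 5.60 and 5.45 with S586A and 3.81 and 3.99 with S586E; after KCl it scored 0.13 and 0.78, 1.10 and 0.77, 3.97 and 3.91, 5.33 and 5.07, and 3.51 and 3.53. All add-back libraries were above all non-targeting and vector libraries. Wild type exceeded vector by 3.46 unstimulated (SE 0.29, adjusted p = 7.927e-05) and by 3.01 after KCl (adjusted p = 9.802e-05). In peak lists the reads of the introduced Smarcc2 and of the gene cannot be told apart, and the level at this member says nothing of the knockout. Among the 3 merged regions that overlap the gene, 1 was called higher unstimulated and 2 after KCl.

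Other members rose from vector to wild type in unstimulated neurons. The member in Trpc7 (chr13:56868420-56868956), a cation channel gene, scored 0.00 in all 4 vector libraries, and unstimulated 2.08 and 1.64 in non-targeting, 2.72 and 1.90 with wild type, 2.10 and 2.14 with S586A and 1.55 and 1.67 with S586E. Vector was the lowest throughout, and wild type exceeded it by 2.31 (SE 0.39, adjusted p = 0.01211). The member 25.5 kb from Tpcn2 (chr7:145155603-145156166), a lysosomal channel gene, scored 0.13 and 0.00 with vector and 1.97 and 2.59 with wild type, a rise of 2.21 (SE 0.31, adjusted p = 0.004567). Members in Ust (chr10:8236551-8237197), a sulfotransferase gene, and Nwd1 (chr8:72682148-72682748) rose by 2.14 and 2.09 (adjusted p = 0.01436 and 0.02945). Of the strongest members, Gabbr2 and Hagh rose by 1.26 (adjusted p = 0.008512) and 1.09 (adjusted p = 0.03282).

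Fewer members were lower with wild type. The member in Dok5 (chr2:170812273-170812750), a docking protein gene, scored 2.42 and 2.62 with vector and 0.86 and 1.04 with wild type, and fell by 1.56 (SE 0.33, adjusted p = 0.0247). One of the 9 members in Atxn1 (chr13:45693445-45694291) scored 2.21 and 1.89 with vector and 0.51 and 0.53 with wild type, and fell by 1.53 (SE 0.35, adjusted p = 0.03495). Among the gene lists, wild type raised 2 members of housekeeping genes and 1 each of ion channels, excitatory neurons and BAF subunits in unstimulated neurons, and lowered 1 of immature neurons. The BAF subunit member was the one in Smarcc2, where reads of the introduced Smarcc2 and of the gene cannot be told apart. The remaining named falls were near Smndc1, a splicing factor gene (by 1.53), in Tex264, an ER-phagy receptor gene (by 1.44), and a member over 100 kb from any gene on chromosome 18.

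After KCl the rises included members 17.6 kb from Meig1 and in Luzp1. The Meig1 member (chr2:3390695-3391437) scored 0.00 and 0.14 with vector, 2.42 and 2.21 with wild type and 2.48 and 2.07 in non-targeting, and wild type exceeded vector by 2.25 (SE 0.39, adjusted p = 0.01461). The Luzp1 member (chr4:136517937-136518701) scored 0.59 and 0.00, 2.86 and 1.88, and 2.48 and 2.04, with a rise of 2.07 (SE 0.36, adjusted p = 0.01408). At both, the vector libraries lay below every other depolarized library. Members in Hkdc1 and at Smpdl3b rose by 3.99 and 2.24 by intervals but did not pass at summits, nor did the falls in Tex264 and Anks1b and near Ralgapb and Sdc3. Chosen after their values were seen as members that passed by both units, those near Trim16 and Susd3 rose by 2.01 and 1.98, and one in Syt1 fell by 1.21, from 2.99 and 2.64 with vector to 1.56 and 1.65.

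**Figure D4:**
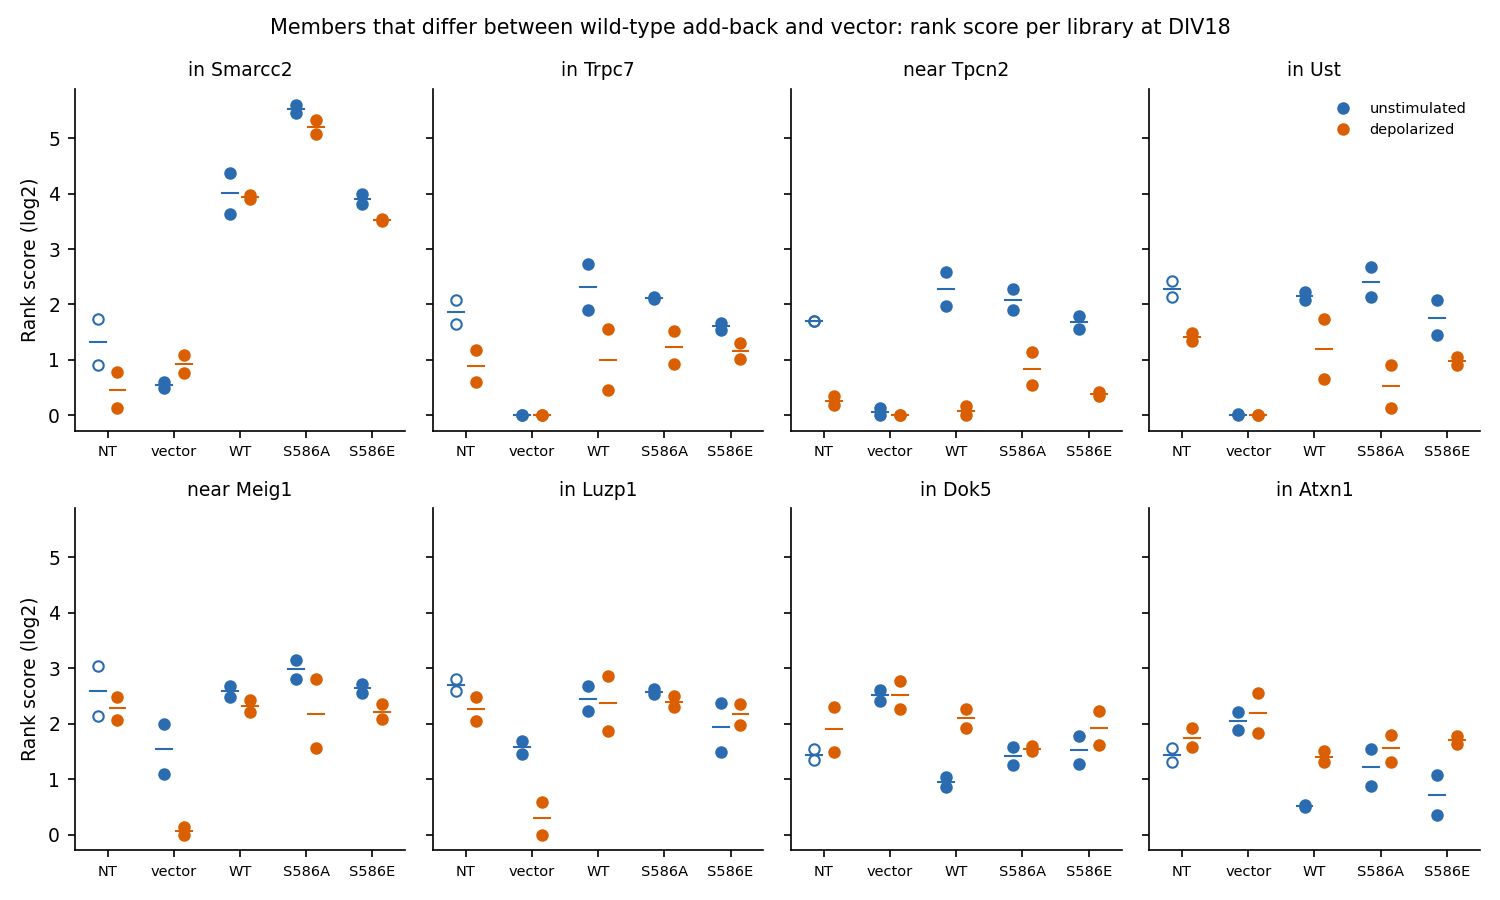
Rank score (log2 scale, vertical axis) of 8 members in each DIV18 library, by genotype (horizontal axis; NT, non-targeting; WT, wild type) and state, drawn as in the plot of members with large KCl changes. The members at Smarcc2, Trpc7, Tpcn2, Ust, Meig1 and Luzp1 were higher with wild type than with vector in at least 1 state, and those in Dok5 and Atxn1 were lower.

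Against non-targeting neurons after KCl, some members were called lower with vector and none higher. Limma called 0 members higher with vector and 118 lower (2.53%), against 0.242% and 1.26% of all regions. Of shared regions, 0.0756% were called higher and 2.00% lower. In the rank band over 40000 to 50000, 1.325% of members and 1.06% of shared regions were called lower, so such calls were not particular to members. The median change was −0.50, beside −0.02 over all regions and −0.14 over shared regions with a mean rank over 40000 to 50000. The members had been chosen in non-targeting neurons, though in the unstimulated libraries only. By intervals the largest falls were in Slc2a1, Hkdc1, Arhgap23, Lrrc8a and Dgat2, and none of these 5 passed at summits, where 64 of the 118 did. The 118 calls were 4 and 7 without non-targeting replicate 1 and 2, and 49 and 15 without vector replicate 1 and 2; they were 39 with list length as a covariate.

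The following were chosen after their values were seen, as the 5 falls that passed by intervals and by summits and were largest by the smaller of both changes. The member in Syngr1 (chr15:80107092-80107543), a synaptic vesicle protein gene, scored 2.36 and 2.51 in depolarized non-targeting neurons, 0.00 and 0.34 with vector and 1.35 and 1.18 with wild type, and fell by 2.27 with vector (SE 0.31, adjusted p = 0.004252). The member 10.3 kb from Sgpl1 (chr10:61158016-61158714), a sphingosine phosphate lyase gene, scored 2.46 and 2.16, 0.21 and 0.39, and 2.35 and 2.23, and fell by 2.01 (SE 0.30, adjusted p = 0.006978). Members near Olfr516, Meig1 and Zfhx3, a homeobox factor gene, fell by 2.17, 2.21 and 1.89 (adjusted p = 0.007559, 0.01407 and 0.02018). The Luzp1 member also passed by both units, with a fall of 1.97 by intervals and 1.80 at summits. At all 5 other members both depolarized wild-type scores lay above both vector scores.

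Wild type differed from non-targeting after KCl, in a comparison added after the data were seen, by a median of −0.15, and limma called 1 member higher, the one in Smarcc2, and 0 lower, with 227 at an unadjusted p under 0.05, beside 5933 of all 112847 regions (0.00443% and 0.0213% of all regions called). The comparisons of vector with non-targeting and with wild type share the vector libraries. Counted without a test, both vector libraries lay below all 8 other depolarized libraries for 1257 members (26.9%), against 11.4% of all regions; unstimulated it was 794 members (17.0%), against 7.54%, and in both states 405 (8.68%), against 3.59%. Among shared regions the shares were 17.05%, 11.2% and 6.09% in the same order. The unstimulated counts include the non-targeting libraries that chose the members.

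Few members passed the test between the S586A or S586E form of Smarcc2 and wild type. A serine is replaced by alanine, which cannot take a phosphate, in S586A and by glutamate, often used to mimic one, in S586E. Over both states, limma called 1 member higher with S586A than with wild type and 0 lower (0.00798% and 0.00177% of all regions), the member in Smarcc2 (by 1.39, SE 0.21, adjusted p = 0.04297), which did not pass at summits and was lost without 7 of the 8 libraries in turn. It called 0 with S586E (0.0461% and 0.00620% of all regions). At an unadjusted p under 0.05 there were 288 and 281 of 4666 members, beside 5935 and 8018 of all 112847 regions. The median change was 0.14 with S586A and −0.07 with S586E, with 71.9% and 40.6% of members above 0, and the median SE of a member was 0.26. A count of 0 does not show that these forms act alike.

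**Figure D5:**
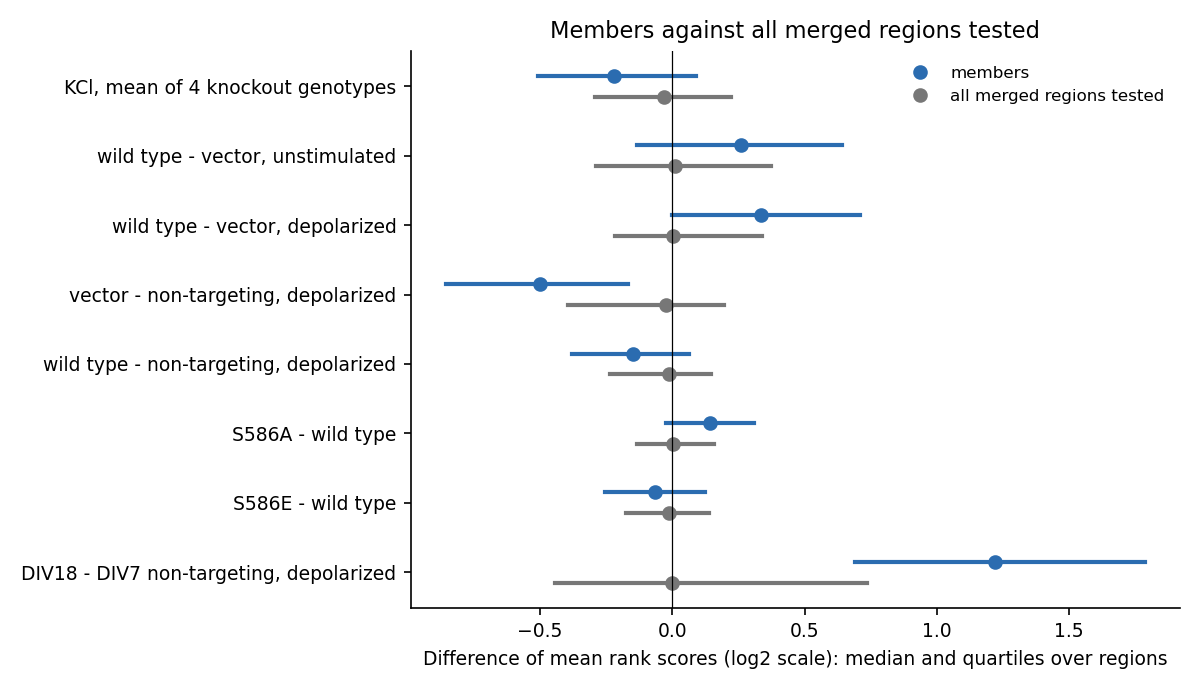
Median (points) and quartiles (lines) over regions of the change in rank score (log2 scale, horizontal axis) in 8 comparisons (vertical axis), for members and for all merged regions tested. The members sit lower after KCl and with vector against non-targeting, and higher with wild type against vector. At DIV18 against DIV7 their median is 1.22, a description, since members were chosen for absence at DIV7.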

How the data were processed

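ATAC-seq peak lists of 44 libraries (22 groups of 2) on mm10 were analysed. The submitters' processing notes name MACS2, Bowtie2, bedtools, Picard, Trim Galore, SAMtools and FastQC, without versions. The deposited lists give the authors' fold enrichment, a ratio to background, and the −log10 p and −log10 q of each summit. All are the authors' values, and peaks were ranked or filtered by them only inside their own list. DIV18 lists held 162079 to 261710 autosomal intervals and DIV7 lists 133009 to 276666. Read depth is unknown, and the background level read from the steps of the fold enrichment was 0.942 to 3.68 reads per base at DIV18 and 1.39 to 8.39 at DIV7.

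Regions of 19 autosomes held by at least 2 libraries of a fit were tested with limma 3.58.1 in R 4.3.3, with 1 mean per group, a variance trend and Benjamini-Hochberg adjustment, called at an adjusted p under 0.05. The DIV18 fit had 20 libraries and the age fit 12 (non-targeting at both ages and DMSO for 30 min). The script was tested on simulated data. Genes, promoters and sequences are from RefSeq, GRCm38.p6.

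Named members were the 12 of best mean rank, the 5 largest called changes per comparison and direction whose libraries did not overlap, up to 3 per gene list and the 10 genes with most members. Members and lists were chosen with earlier results of these data known. Some members that this rule names are not reported here.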

Additional observations from a re-analysis of the deposited data

Results flagged for a closer look

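Signal appeared in libraries that no comparison used. In unstimulated DIV7 neurons with the Arid2 knockout, 12.752% and 11.444% of members were overlapped by an interval of the whole list. The non-targeting libraries of the same state held 0 by the rule that chose the members, so they are no level to compare with. In the depolarized libraries of that experiment, which the rule did not use, the share was 5.74% and 5.36% in non-targeting neurons and 6.39% and 4.87% with the Arid2 knockout. Arid2 is a subunit of the PBAF form of the complex. Among the top 75000 intervals the unstimulated Arid2 knockout libraries held 1.07% and 0.729% of members. The difference between genotypes was not tested.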

How the results depend on the processing

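The number of members was 1970 from the top 50000 intervals, 8206 from the top 100000, 3101 when absent from all 24 DIV7 lists, 14779 when absent only from the top 75000 of the 6 lists and 12883 when a DIV7 interval had to cover 50% of a region. Counts of called members that moved by over 1.5 times are given here by setting. On the top 75000 alone they were 41 for wild type against vector after KCl, 75 for vector against non-targeting, 2145 for age and 2 for wild type against non-targeting. With summits ranked they were 283 and 46 for wild type against vector, unstimulated and after KCl, and 0 for S586A. With 50% overlap they were 74 for wild type against vector unstimulated, 5 for wild type against non-targeting and 2 for the difference in KCl change. With a −log10 q of at least 3 they were 47 for wild type against vector after KCl and 77 for vector against non-targeting. Without the filter they were 50 for wild type against vector after KCl, 0 for S586A, 2 for S586E and 1 for the difference in KCl change. With the number of intervals as covariate they were 863 for KCl, 39 for vector against non-targeting, 0 for S586A and 77 for age. The causes were not tested.

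Replicate numbers were not taken as pairs, since the labels do not say what they share and the correlation of deviations passed 0.1 in 26 of 45 pairs of groups, not in all. It was above 0 in all 45 (0.0359 to 0.1837, median 0.1048), so a shared replicate effect is possible, and was not tested further. With a replicate block the counts were 206 and 153 for wild type against vector, 264 for vector against non-targeting, 0 for S586A and 1 for S586E, and the others stayed within 1.5 times. Leaving out 1 library at a time gave 1281 to 1517 calls for KCl, 11 to 48 and 1 to 40 for wild type against vector, 4 to 49 for vector against non-targeting, 0 to 2 for S586A and for S586E, 3400 to 3801 for age, 1 to 3 for wild type against non-targeting and 0 to 1 for the difference in KCl change, where a lone library is assumed to vary like the others. Of 41 results for named members, 14 lost their call at summits, 12 with the covariate, 11 without the filter, 11 with 50% overlap, 3 on the top 75000, 1 with the −log10 q limit and 1 with the block, and 0 by fold enrichment; none of them turned direction in any of these settings or without 1 library. With the libraries that chose the members left out of the fits, an alternative added after the data were seen, each count stayed within 1.5 times and 2 of the 41 results lost their call. Lists without read counts limit how small a change can be seen.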
